A study of Mus musculus with 6 samples.

Results

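The genes Hoxa2, Hoxa3, Hoxa4, Hoxa5, Hoxa6 and Hoxa7 form the anterior and central stretch of the HoxA cluster, and all 6 were chosen by name among the 27179 genes counted in these cells, including those with few counts. Messenger RNA was sequenced from 3 immortalized mouse embryonic fibroblast (MEF) lines of the strain C57BL/6, with 2 libraries from separate RNA preparations per line. Cry/Per_KO cells carry cry1-/-, cry2-/-, per1-/- and per2-/-, Cry/Per/Nr1d_KO cells carry these and nr1d1-/- and nr1d2-/-, and Per/Nr1d_KO cells carry per1-/-, per2-/-, nr1d1-/- and nr1d2-/-. All 3 lines thus lack PER1 and PER2, and no wild-type cells were analysed here. The Cry/Per/Nr1d_KO line is a single CRISPR clone isolated from Cry/Per_KO cells under puromycin, whereas Per/Nr1d_KO is another line, so that a difference between lines includes any difference between clones. The cells were growing in medium with 10% serum. The question of the design was which transcripts follow the presence of NR1D proteins (Cry/Per_KO against Cry/Per/Nr1d_KO cells) or of CRY proteins (Per/Nr1d_KO against Cry/Per/Nr1d_KO cells).

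For 2 of the 3 lines, the genotype label of a library gives one line and the name of its deposited counts gives another. The pair labelled Cry/Per/Nr1d_KO was deposited under the name of Cry/Per cells, and the pair labelled Cry/Per_KO under the name of Cry/Per/Nr1d cells. The genotype labels were used, and each such pair is named below by its label, as the Cry/Per/Nr1d_KO-labelled pair or the Cry/Per_KO-labelled pair. If the names are right, the comparison of these pairs changes its sign, and the comparisons of Per/Nr1d_KO cells with them exchange their references. The level of Cry1, a gene that NR1D proteins are known to repress, was 5323 and 5478 normalized counts (scaled as described below) in the Cry/Per_KO-labelled pair, which by its label keeps NR1D proteins, 1698 and 1724 in the Cry/Per/Nr1d_KO-labelled pair, and 1535 and 1592 in Per/Nr1d_KO cells. Nr1d1, itself such a target, was at 9337 and 9249 in the Cry/Per_KO-labelled pair and at 3158 and 3146 in the Cry/Per/Nr1d_KO-labelled pair. In Per/Nr1d_KO cells, which lack NR1D proteins under either naming, it was in between, at 5359 and 4838. Cry1 is itself mutated in both labelled pairs, and Nr1d1 in one of them and in Per/Nr1d_KO cells. Between the labelled pairs, these levels go against both genotype labels and with the deposited names. Every direction given here between these pairs, and every reference for Per/Nr1d_KO cells, therefore carries that doubt. Groups were not reassigned from measured values, and all 3 pairwise comparisons are given. They share libraries and are not independent of each other.

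Hox genes encode homeodomain transcription factors that give cells of the embryo their position along the head-to-tail axis. Within a cluster the genes lie in the order in which they are used along that axis, from the 3' end (head) to the 5' end (Hoxa13, tail and distal limb). Fibroblasts in culture are known to keep a Hox pattern that reflects the body site they came from. Hox proteins bind DNA together with PBX, MEIS and PKNOX cofactors. The clusters are held in silent or active states by Polycomb and trithorax proteins and respond to retinoic acid and CDX factors.

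The libraries held between 53764390 and 85927236 counts, and the 6 genes together took between 3.28 and 12.9 CPM. Values are given as normalized counts, that is, counts scaled to the mean effective library size after TMM normalization. A single gene had between 10 and 340 counts in a library, for which counting error alone is 31.6% and 5.42% of the value. A difference was called where it exceeded 75% of the lower level (0.81 on the log2 scale, in either direction) and its Benjamini-Hochberg adjusted p was under 0.05. Adjusted p-values are from edgeR's quasi-likelihood test over 14770 genes and measure only the spread between RNA preparations, which may be technical. The 6 mutated clock genes were each at 1004 or more normalized counts in every library, so the mere presence of their RNA checks no label. Fibroblast markers were high (Col1a1 between 126050 and 627940 normalized counts), whereas Thy1 was at 0 in 3 libraries and at most 6.21 in the others. The summed level of the 14 fibroblast markers was 971958 to 996176 in the Cry/Per_KO-labelled pair, 1105700 to 1156270 in the Cry/Per/Nr1d_KO-labelled pair and 1899150 to 1924460 in Per/Nr1d_KO cells. This sum rests mostly on Fn1, Col1a1 and Col1a2, and of the 13 markers tested 5 were called higher and 6 lower in Per/Nr1d_KO cells than in the Cry/Per/Nr1d_KO-labelled pair, with the largest log2 fold changes in Col3a1 (5.72) and Col1a1 (1.51) among the higher and in S100a4 (-2.83) and Postn (-1.80) among the lower.

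All 6 genes lie on the minus strand of chromosome 6 (RefSeq, GRCm38.p6, the assembly of mm10). Hoxa2 (Entrez Gene 15399) spans chr6:52162417-52164831, Hoxa3 (15400) chr6:52169059-52213067, Hoxa4 (15401) chr6:52189682-52191703, Hoxa5 (15402) chr6:52201754-52204587, Hoxa6 (15403) chr6:52204858-52208672 and Hoxa7 (15404) chr6:52215623-52218573. The span of Hoxa3 encloses Hoxa4, Hoxa5 and Hoxa6, since its longest transcripts start far upstream, but no exon base is shared among the 6 genes in GENCODE vM21. RefSeq promoters of 300 bases, from 250 before to 50 after the start, were found for all of the genes except Hoxa4. They were searched on both strands for the E-box CACGTG, the site of CLOCK-BMAL1, and for AGGTCA, the core motif that NR1D proteins and other nuclear receptors bind. The letters CACGTG were in none of the 5 promoters and in 7.15% of the 32851 promoters of the table, and AGGTCA was in 1 of the 5 and in 16.3% of the table. The match lay in Hoxa5, within chr6:52204538-52204567, after the start site and inside the first exon, and is shown in capitals because it is the only match to a clock-related motif among these promoters.
Hoxa5 after the start: agtgcacgagtttacctctagAGGTCAtca
The 150 bases before the start of Hoxa2 (chr6:52164832-52164981) and of Hoxa5 (chr6:52204588-52204737) are shown because these genes, described below by their values, followed different patterns across the lines. They contain neither motif and are therefore all in lower case.
Hoxa2 upstream: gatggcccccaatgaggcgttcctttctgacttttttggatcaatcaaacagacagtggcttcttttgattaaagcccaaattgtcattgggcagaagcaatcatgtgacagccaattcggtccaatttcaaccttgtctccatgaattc
Hoxa5 upstream: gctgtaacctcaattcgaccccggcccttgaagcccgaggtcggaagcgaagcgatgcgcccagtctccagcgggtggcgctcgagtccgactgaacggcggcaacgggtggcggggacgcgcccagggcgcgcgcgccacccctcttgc
The Hoxa2 sequence is 43.3% G and C and the Hoxa5 sequence 71.3%. A match to these letters is a description of the sequence and not a binding site. An absent match says only that the letters are not in this window. In GENCODE vM21, the 150 bases before the start overlap exons of the same gene at Hoxa3, Hoxa6 and Hoxa7. Whether their windows are the promoters in use was not tested.

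Hoxa2, which patterns the hindbrain and the second pharyngeal arch, was highest in the Cry/Per_KO-labelled pair. Its normalized counts were 21.3 and 25.5 in the Cry/Per/Nr1d_KO-labelled pair, 63.4 and 47.1 in the Cry/Per_KO-labelled pair, and 25.3 and 29.2 in Per/Nr1d_KO cells. Both Cry/Per_KO-labelled libraries lay above the other 4, and the values of the remaining lines overlapped. Hoxa2 was 2.35-fold higher in the Cry/Per_KO-labelled pair than in the Cry/Per/Nr1d_KO-labelled pair (log2 fold change 1.23 ± 0.28 (SE), adjusted p = 0.000814). It was lower in Per/Nr1d_KO cells than in the Cry/Per_KO-labelled pair (-0.98 ± 0.27, adjusted p = 0.00323). Between Per/Nr1d_KO cells and the Cry/Per/Nr1d_KO-labelled pair the difference was 0.25 ± 0.32 with an adjusted p of 0.495, and it was not called. The fall in Per/Nr1d_KO cells was -0.75 (adjusted p = 0.0488) and no longer past the limit on the fold without replicate 1 of the Cry/Per_KO-labelled pair.

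Hoxa3, which is needed for the thymus and the parathyroid glands, had the same highest line and a clearer order. It had 34.6 and 34.4 normalized counts in the Cry/Per/Nr1d_KO-labelled pair, 230.4 and 235.7 in the Cry/Per_KO-labelled pair, and 109 and 90.0 in Per/Nr1d_KO cells. The 3 lines did not overlap, and the spread between the libraries of a line was small against the distance between the lines. Hoxa3 was 6.71-fold higher in the Cry/Per_KO-labelled pair than in the Cry/Per/Nr1d_KO-labelled pair (log2 fold change 2.75 ± 0.18, adjusted p = 1.9e-10). Per/Nr1d_KO cells had more Hoxa3 than the Cry/Per/Nr1d_KO-labelled pair (1.5 ± 0.20, adjusted p = 2.7e-06) and less than the Cry/Per_KO-labelled pair (-1.25 ± 0.14, adjusted p = 3.21e-07).

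Hoxa4, which shapes the cervical vertebrae, was lowest in the Cry/Per/Nr1d_KO-labelled pair and highest in Per/Nr1d_KO cells. Its levels of 23.1 and 33.3, then 79.0 and 76.6, then 141 and 126 normalized counts belong to the Cry/Per/Nr1d_KO-labelled pair, the Cry/Per_KO-labelled pair and Per/Nr1d_KO cells. No library of one line reached into the range of another. Relative to the Cry/Per/Nr1d_KO-labelled pair, Hoxa4 was higher by 1.48 ± 0.23 on the log2 scale in the Cry/Per_KO-labelled pair (adjusted p = 2.06e-05) and by 2.25 ± 0.21 in Per/Nr1d_KO cells (adjusted p = 2.72e-08). Between the last of these and the Cry/Per_KO-labelled pair the difference was 0.77 ± 0.17 (adjusted p = 0.000607), a 1.71-fold change that lies just inside the limit and was not called. Without replicate 2 of Per/Nr1d_KO cells it was 0.86 and past the limit.

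Hoxa5, a regulator of lung development and of the skeleton at the border of neck and thorax, followed the same order as Hoxa4. It had 70.1 and 92.2 normalized counts in the Cry/Per/Nr1d_KO-labelled pair, 152.5 and 130.6 in the Cry/Per_KO-labelled pair, and 329.5 and 268 in Per/Nr1d_KO cells. The 3 lines were again separate, with Per/Nr1d_KO cells highest. The rise in Per/Nr1d_KO cells was 1.88 ± 0.16 on the log2 scale against the Cry/Per/Nr1d_KO-labelled pair (adjusted p = 9.33e-09) and 1.07 ± 0.15 against the Cry/Per_KO-labelled pair (adjusted p = 3.53e-06). Between the Cry/Per_KO- and Cry/Per/Nr1d_KO-labelled pairs the log2 fold change was 0.81 ± 0.18 (adjusted p = 0.000722), which is just past the limit. It was inside the limit without replicate 1 of the Cry/Per/Nr1d_KO-labelled pair (0.61) and without replicate 1 of the Cry/Per_KO-labelled pair (0.69).

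Hoxa6, a gene of the thoracic region, was high in Per/Nr1d_KO cells and low in the other lines. Its normalized counts were 14.2 and 11.1 in the Cry/Per/Nr1d_KO-labelled pair, 23.4 and 18.7 in the Cry/Per_KO-labelled pair, and 100.1 and 95.5 in Per/Nr1d_KO cells. The low values rest on 10 to 21 counts per library. Hoxa6 was 7.54-fold higher in Per/Nr1d_KO cells than in the Cry/Per/Nr1d_KO-labelled pair (log2 fold change 2.91 ± 0.27, adjusted p = 2.17e-08) and 2.22 ± 0.25 higher on the log2 scale than in the Cry/Per_KO-labelled pair (adjusted p = 1.93e-07). The low lines did not overlap, but their difference of 0.69 ± 0.37 was not called (adjusted p = 0.0994).

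Hoxa7, which also acts in the thoracic region and is a known target of the methyltransferase KMT2A, was the gene of the 6 that was lowest in the Cry/Per_KO-labelled pair. It had 54.2 and 34.4 normalized counts in the Cry/Per/Nr1d_KO-labelled pair, 13.4 and 23.6 in the Cry/Per_KO-labelled pair, and 176 and 169.6 in Per/Nr1d_KO cells. The lines did not overlap, although the 2 libraries of each low line differed from each other by more than the 2 of the Per/Nr1d_KO line. Hoxa7 was 2.41-fold lower in the Cry/Per_KO-labelled pair than in the Cry/Per/Nr1d_KO-labelled pair (log2 fold change -1.27 ± 0.32, adjusted p = 0.00163). This call was lost without replicate 1 of the Cry/Per/Nr1d_KO-labelled pair (-0.87, adjusted p = 0.0521). Hoxa7 was higher in Per/Nr1d_KO cells than in either of the other pairs, by 1.93 ± 0.20 on the log2 scale against the Cry/Per/Nr1d_KO-labelled pair (adjusted p = 1.2e-07) and by 3.20 ± 0.25 against the Cry/Per_KO-labelled pair (adjusted p = 1.19e-09), a 9.17-fold change.

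**Figure D1:**
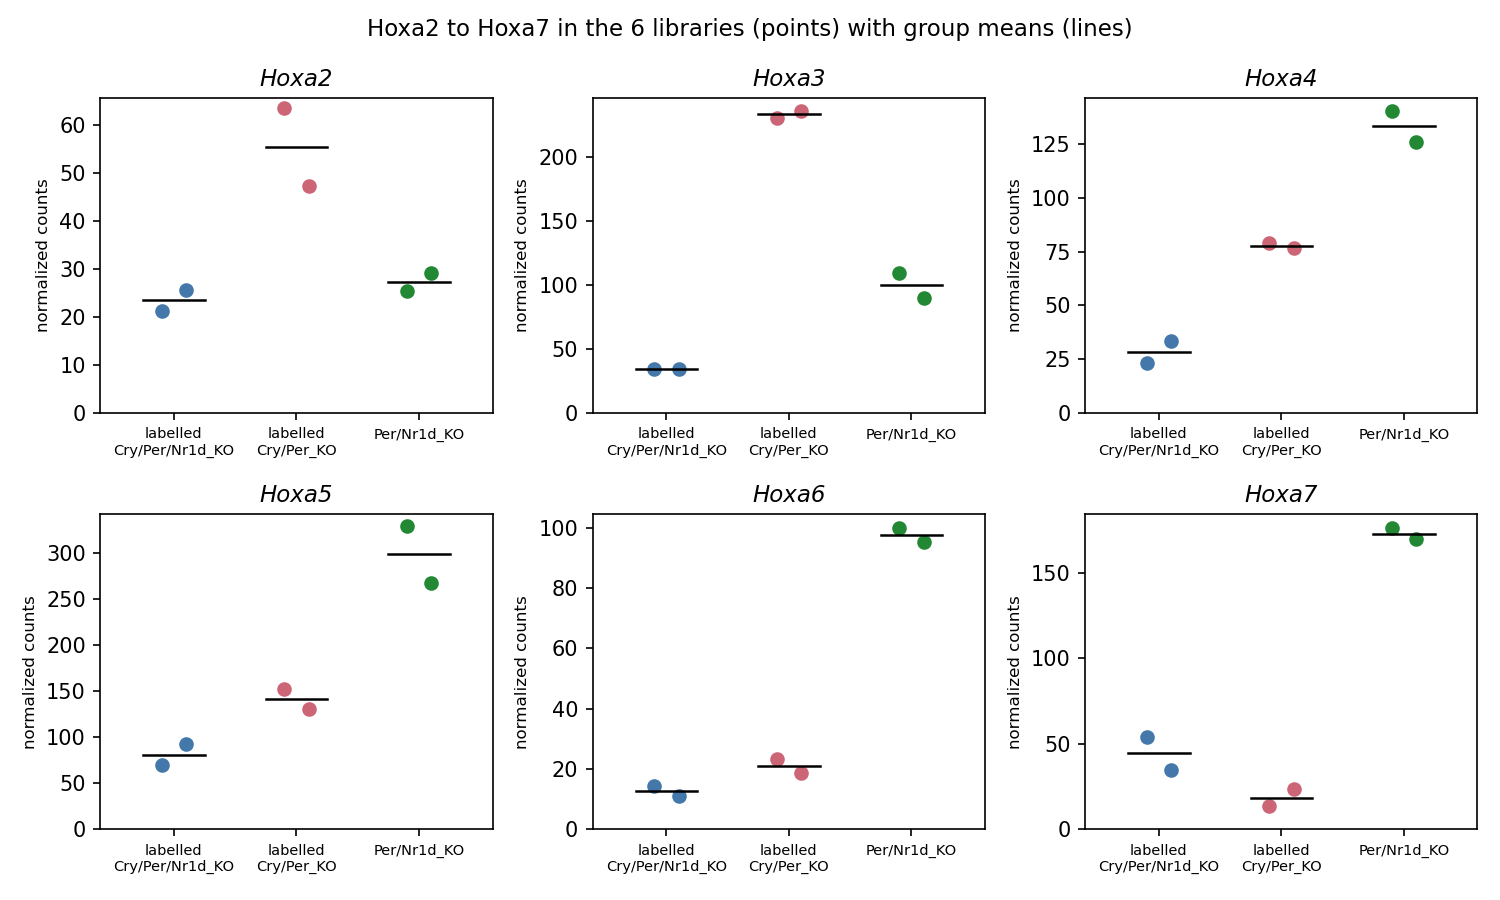
Normalized counts (y axis, linear, from 0) of the 6 genes in each library (points), by cell line as labelled (x axis), with the mean of the 2 libraries as a line. Hoxa2 and Hoxa3 peak in the Cry/Per_KO-labelled pair, where Hoxa3 reaches 230.4 and 235.7, whereas Hoxa4 to Hoxa7 peak in Per/Nr1d_KO cells.

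Among the 6 genes, 4 were called higher (Hoxa2, Hoxa3, Hoxa4 and Hoxa5) and 1 lower (Hoxa7) in the Cry/Per_KO-labelled pair than in the Cry/Per/Nr1d_KO-labelled pair, where 10.4% of all tested genes were called higher and 12% lower. In Per/Nr1d_KO cells against the Cry/Per/Nr1d_KO-labelled pair, 5 genes were called higher (all but Hoxa2) and 0 lower by edgeR, also at an unadjusted p under 0.05, where 13.4% of all genes were called higher and 13.1% lower. Against the Cry/Per_KO-labelled pair, 3 were called higher in Per/Nr1d_KO cells (Hoxa5, Hoxa6 and Hoxa7) and 2 lower (Hoxa2 and Hoxa3), beside 17.1% higher and 16.7% lower among all genes. The median log2 fold change of the 6 genes was 1.02, 1.90 and 0.92 in the 3 comparisons, whereas that of all tested genes was -0.0010, 0.0011 and 0.022. Calls were frequent at this expression level. Of the 1860 genes with a mean in the range of the 6 genes, 35.3 to 174 normalized counts, 46.1%, 50.4% and 56.0% were called in either direction in the 3 comparisons. This range was chosen after the values were seen.

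**Figure D2:**
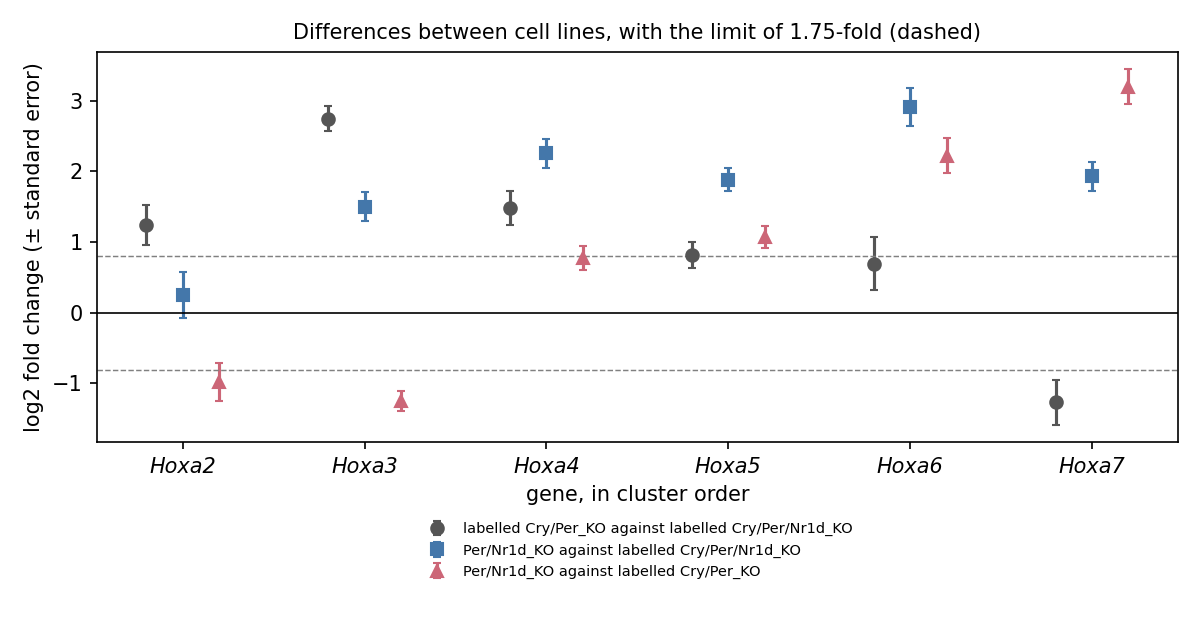
Log2 fold changes with their standard errors (y axis) of the 6 genes in cluster order (x axis) in the 3 comparisons between lines, with the limit on the fold (0.81 in either direction) as dashed lines. The comparison of the Cry/Per_KO-labelled with the Cry/Per/Nr1d_KO-labelled pair (circles) is positive from Hoxa2 to Hoxa6 and negative at Hoxa7 (-1.27), and the comparison of Per/Nr1d_KO with the Cry/Per_KO-labelled pair (triangles) is negative at Hoxa2 and Hoxa3 and positive from Hoxa4 on, up to 3.20 at Hoxa7.

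As a measure of how alike the patterns of the 6 genes were, the root mean square difference of centred log2 CPM values over the 6 libraries was 0.27 between Hoxa4 and Hoxa5, the closest pair, and 1.97 between Hoxa3 and Hoxa7, the farthest. The other neighbours along the cluster differed by 0.69 (Hoxa2 and Hoxa3), 0.83 (Hoxa3 and Hoxa4), 0.51 (Hoxa5 and Hoxa6) and 0.82 (Hoxa6 and Hoxa7). The contrast between the farthest pair can be read within a library, without scaling between libraries. Hoxa3 took 39.0% (95% Wilson interval 30% to 48.8%) and 50% (37.9% to 62.1%) of the reads of Hoxa3 and Hoxa7 in the Cry/Per/Nr1d_KO-labelled pair. In the Cry/Per_KO-labelled pair this share was 94.5% (90.7% to 96.8%) and 90.9% (86.8% to 93.8%), and in Per/Nr1d_KO cells it was 38.2% (32.1% to 44.7%) and 34.7% (29.7% to 39.9%). The share thus stood above 90% in one line and at 50% or less in both others. The pair was chosen after its values were seen, the intervals cover counting error only, and the share was not tested.

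**Figure D3:**
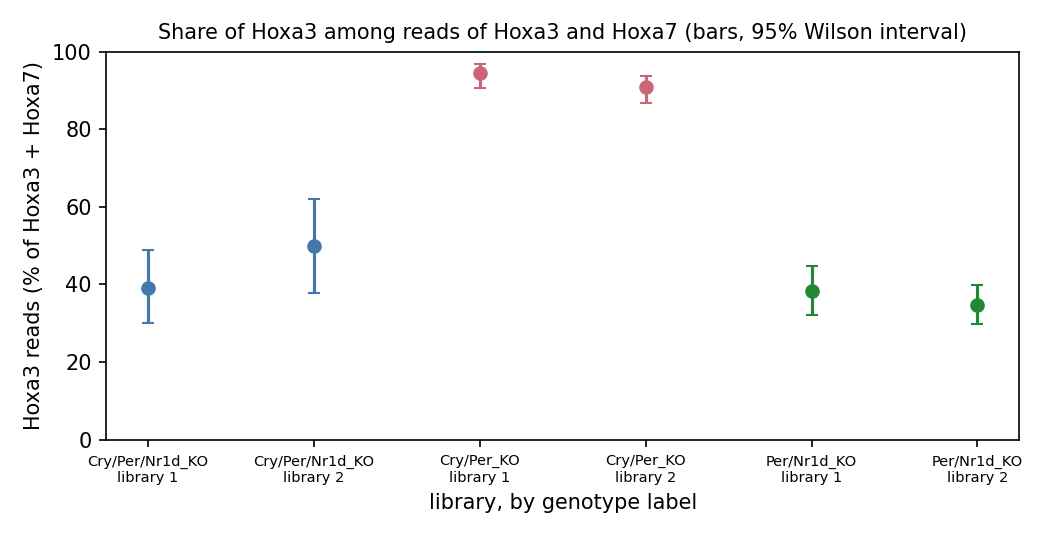
Share of Hoxa3 among the reads of Hoxa3 and Hoxa7 (y axis, percent) in each of the 6 libraries (x axis, by genotype label), with 95% Wilson intervals as bars. The Cry/Per_KO-labelled libraries stand at 94.5% and 90.9%, and the other 4 lie between 34.7% and 50%.

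Between genes, levels were compared per kilobase of exon. With all annotated exons as the length, Hoxa5 had the highest level of the 6 in the Cry/Per/Nr1d_KO-labelled pair (43.2 ± 8.30 normalized counts per kilobase, SD, n = 2), in the Cry/Per_KO-labelled pair (75.4 ± 8.24) and in Per/Nr1d_KO cells (159 ± 23.1). In Per/Nr1d_KO cells Hoxa6 followed with 112 ± 3.77 and Hoxa4 with 83.7 ± 6.41 per kilobase, then Hoxa7 with 60.1 ± 1.61, Hoxa3 with 16.5 ± 2.24 and Hoxa2 with 15.4 ± 1.53, of which the last 2 did not differ beyond their spread. In the Cry/Per_KO-labelled pair the order after Hoxa5 was Hoxa4 (48.8 ± 1.08), Hoxa3 (38.7 ± 0.62), Hoxa2 (31.1 ± 6.50), Hoxa6 (24 ± 3.82) and Hoxa7 (6.42 ± 2.51), and Hoxa2 and Hoxa6 did not differ by more than the sum of their SDs. In the Cry/Per/Nr1d_KO-labelled pair, Hoxa4 (17.7 ± 4.54), Hoxa7 (15.4 ± 4.85), Hoxa6 (14.5 ± 2.51) and Hoxa2 (13.2 ± 1.69) lay within each other's spread, and Hoxa3 was at 5.74 ± 0.02 per kilobase. The places of Hoxa3 and Hoxa7 depend on the length used. The exons of Hoxa3 add up to 6014 bases but the longest principal transcript has 2591, and with the latter its level was 89.9 per kilobase in the Cry/Per_KO-labelled pair, above Hoxa5. With the principal transcript of 2009 bases in place of 2876, Hoxa7 stood at 86.1 per kilobase in Per/Nr1d_KO cells and at 22 in the Cry/Per/Nr1d_KO-labelled pair. In both it was above Hoxa4, but by less than the SD of Hoxa4.

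Some exon bases of these genes are also annotated to other transcripts, and the strand setting of the counting is not given in the sources used here. On the opposite strand, Hoxaas3 covers 20.4% of the exon bases of Hoxa7 and Gm29430 covers 16.0% of those of Hoxa4. Of the exon bases of Hoxa3, opposite-strand exons of Hoxaas2 cover 8.36%, those of Gm29430 7.27%, those of Hoxaas3 4.94% and those of 5730596B20Rik 4.86%. On the same strand, Gm28308 covers 15.0% of the exon bases of Hoxa2 and 8.02% of those of Hoxa3. Hoxa5 and Hoxa6 share no exon base with another gene. Hoxaas3 itself had between 0 and 15 counts in a library, of which 13 and 15 were in Per/Nr1d_KO cells, where Hoxa7 had 139 and 215 counts. Stretches of 50 bases, the read length, were also searched for in genes outside the HoxA region. Those found there made up 0.151% of the Hoxa3 exons and 0.364% of the Hoxa6 transcripts (shared with Hoxb4). None was found there for the other 4 genes. Genes within the HoxA region, among them the overlapping transcripts named above, were left out of this search.

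Hoxa9, Hoxa10, Hoxa11 and Hoxa13, which follow Hoxa7 toward the 5' end, had the same order of lines as Hoxa7. Of these, Hoxa9, Hoxa11 and Hoxa13 had 0 counts in both Cry/Per_KO-labelled libraries and Hoxa10 had 0 and 5. With 3 counts per library as the floor, Hoxa9 was at least 30.6-fold, Hoxa11 at least 68.7-fold and Hoxa13 at least 14.6-fold lower there than in the Cry/Per/Nr1d_KO-labelled pair. These genes were high in Per/Nr1d_KO cells, with 1044 and 953 normalized counts of Hoxa9 and 3208 and 3091 of Hoxa10, and all 4 were called higher than in either of the other pairs. Hoxa11os, a transcript antisense to Hoxa11, also had 0 counts in both Cry/Per_KO-labelled libraries, and it had 1522 and 1557 normalized counts in Per/Nr1d_KO cells. Hoxa7, at 13.4 and 23.6 normalized counts, was thus the gene nearest the 5' end that had more than 10 counts in both Cry/Per_KO-labelled libraries.

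**Figure D4:**
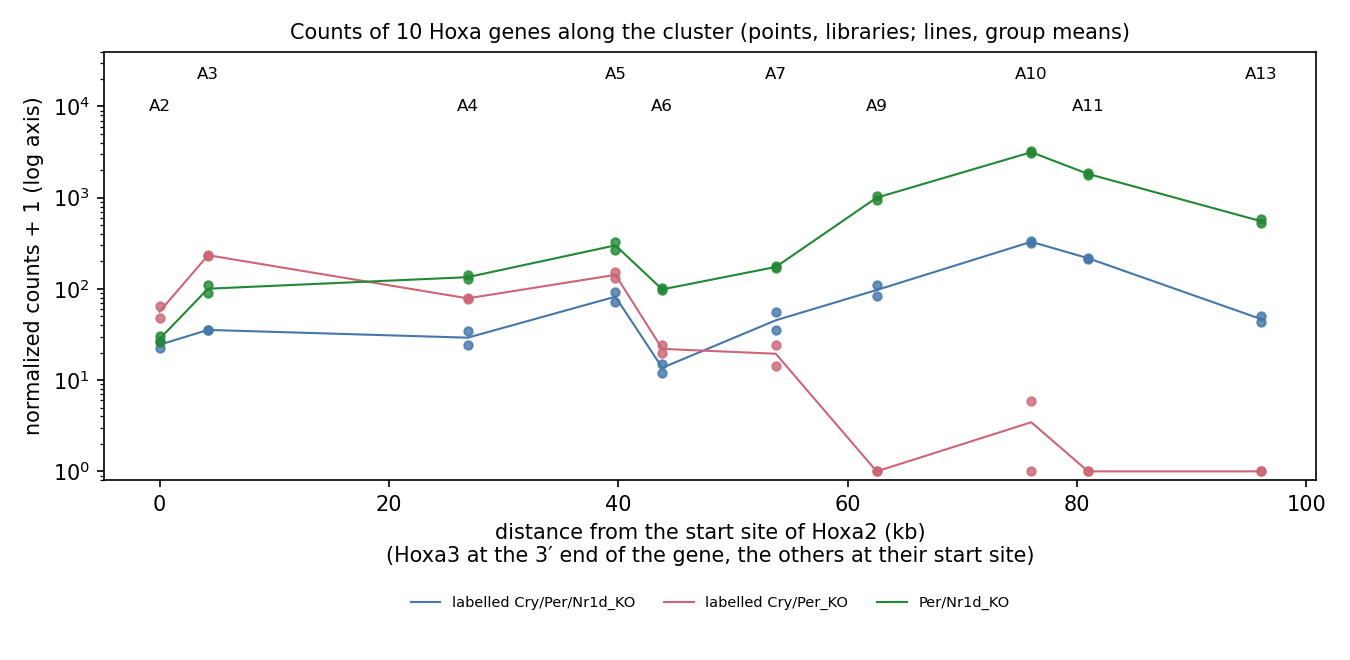
Normalized counts plus 1 (y axis, log scale) of 10 Hoxa genes against the distance from the start of Hoxa2 (x axis, kilobases, Hoxa3 placed at its 3' end), with a point per library and a line through the means of each line. From Hoxa2 to Hoxa7 the 3 lines differ by less than 10-fold. From Hoxa9 on, the Cry/Per_KO-labelled pair are at 0 to 4.91 normalized counts while Per/Nr1d_KO cells hold 525 to 3208.

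The genes that flank the cluster stayed within the limit on the fold. Snx10, Skap2 and Hibadh, at 1820 or more normalized counts in every library, had log2 fold changes of 0.40, 0.76 and 0.47 in the Cry/Per_KO-labelled pair against the Cry/Per/Nr1d_KO-labelled pair. In Per/Nr1d_KO cells they were 0.22, 0.39 and -0.11 against the Cry/Per/Nr1d_KO-labelled pair and -0.18, -0.36 and -0.58 against the Cry/Per_KO-labelled pair. In edgeR, 0 of the 3 were thus called, although 3, 2 and 3 of them had an unadjusted p under 0.05 in these comparisons. Evx1, next to Hoxa13, had between 0 and 2 counts. The median log2 fold change of the 713 tested genes of chromosome 6 was 0.35, -0.11 and -0.43 in the 3 comparisons, and its part in the differences of the Hoxa genes was not tested. With it subtracted, Hoxa5 stood at 0.46 between the Cry/Per_KO- and Cry/Per/Nr1d_KO-labelled pairs, and Hoxa2 and Hoxa4 stood at -0.55 and 1.2 between Per/Nr1d_KO cells and the Cry/Per_KO-labelled pair. The first 2 of these were then inside the limit on the fold and Hoxa4 was past it.

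There are 11 paralogues of the same groups in the HoxB, HoxC and HoxD clusters. In the Cry/Per_KO-labelled pair, where Hoxa2 and Hoxa3 were highest, the paralogues were at or near 0, with at most 4 counts each. Hoxb4, Hoxb5, Hoxb6, Hoxb7, Hoxc4, Hoxc6 and Hoxd4 reached the mean of 10 normalized counts needed for the test only through the Cry/Per/Nr1d_KO-labelled pair, where they were highest, so no direction is read from their calls and they are described by their values. Hoxb2, the paralogue of Hoxa2, had 76.4 and 63.3 normalized counts in the Cry/Per/Nr1d_KO-labelled pair, 0 in both Cry/Per_KO-labelled libraries, and 243 and 219 in Per/Nr1d_KO cells. It was called higher in Per/Nr1d_KO cells than in the Cry/Per/Nr1d_KO-labelled pair (1.71 on the log2 scale), where Hoxa2 differed by 0.25. Hoxb3, the paralogue of Hoxa3, had 193 and 189.9 normalized counts in the Cry/Per/Nr1d_KO-labelled pair, 0 and 3.93 in the Cry/Per_KO-labelled pair, and 199 and 215 in Per/Nr1d_KO cells. Hoxb7, the paralogue of Hoxa7, had 152 and 154 normalized counts in the Cry/Per/Nr1d_KO-labelled pair, 1.11 and 0 in the Cry/Per_KO-labelled pair, and 0 in both libraries of Per/Nr1d_KO cells. Hoxd4, a paralogue of Hoxa4, had 38.2 and 56.6, then 3.34 and 0.98, then 19 and 10.3 in the same order of lines.

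**Figure D5:**
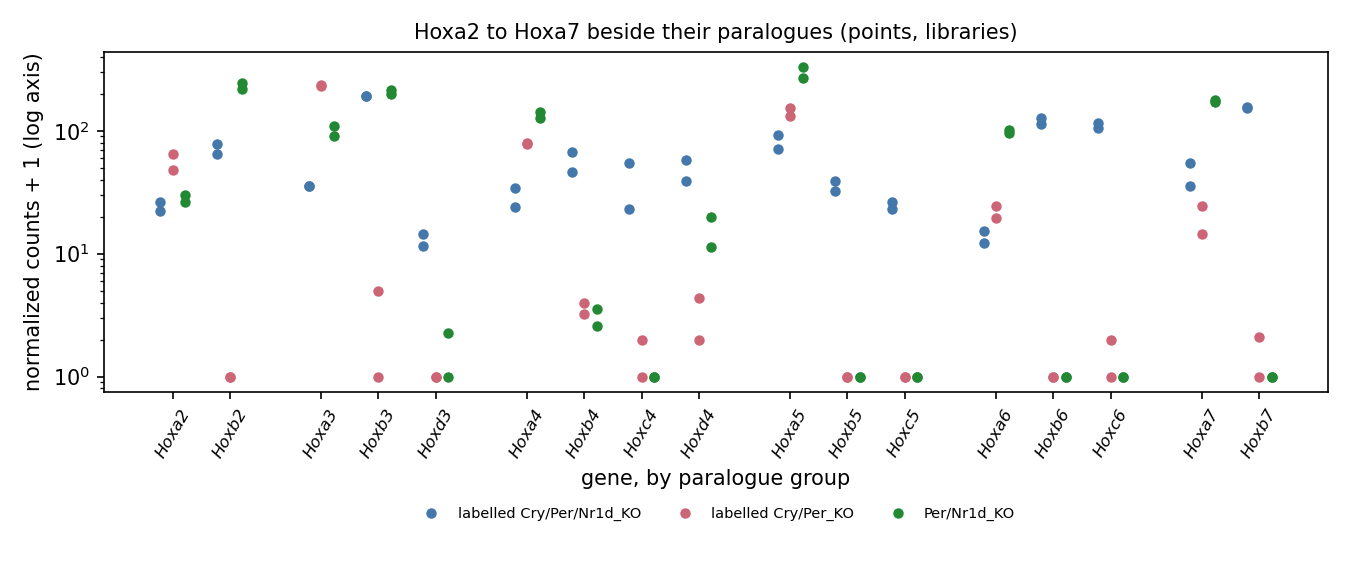
Normalized counts plus 1 (y axis, log scale) of Hoxa2 to Hoxa7 and their paralogues, by paralogue group (x axis), with a point per library coloured by line. Each Hoxa gene is above 10 in all 6 libraries, whereas the paralogues are at or below 3.93 in the Cry/Per_KO-labelled pair and, apart from Hoxb2, Hoxb3 and Hoxd4, at or below 2.53 in Per/Nr1d_KO cells.

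Genes of the pathways that act with or on Hox genes were counted from lists. Of all tested genes, 10.4% were called higher and 12% lower in the Cry/Per_KO-labelled pair than in the Cry/Per/Nr1d_KO-labelled pair. In Per/Nr1d_KO cells these shares were 13.4% and 13.1% against the Cry/Per/Nr1d_KO-labelled pair, and 17.1% and 16.7% against the Cry/Per_KO-labelled pair. Of 9 PBX, MEIS and PKNOX cofactors, 2 were called higher (Pbx4, 1.48, and Pknox2, 1.30) and 0 lower in the Cry/Per_KO-labelled pair than in the Cry/Per/Nr1d_KO-labelled pair by edgeR, with 4 higher and 4 lower at an unadjusted p under 0.05. In Per/Nr1d_KO cells, where Hoxa4 to Hoxa7 were highest, Meis3 was lower by 3.08 on the log2 scale and Meis2 by 1.37 than in the Cry/Per/Nr1d_KO-labelled pair, and Pknox2 was higher by 0.81. Against the Cry/Per_KO-labelled pair, Meis3 and Meis2 were lower (-3.71 and -0.84) in these cells.

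Retinoic acid genes were called in all 3 comparisons. Of the 14 that were tested, 1 was called higher and 9 lower in the Cry/Per_KO-labelled pair than in the Cry/Per/Nr1d_KO-labelled pair. Of all tested genes, 10.4% were called higher and 12% lower in that comparison. The receptor Rara was called higher (0.87) and the receptor Rarb lower (-1.22). The largest falls were in the retinol transporter Stra6 (-3.96), the synthesis enzyme Aldh1a3 (-3.37) and the degrading enzyme Cyp26b1 (-2.72). In Per/Nr1d_KO cells 3 were called higher and 4 lower than in the Cry/Per/Nr1d_KO-labelled pair, beside 13.4% and 13.1% of all tested genes. The binding proteins Crabp2 and Crabp1 moved in opposite directions there, by 5.37 and -10.56 on the log2 scale. Against the Cry/Per_KO-labelled pair 7 were called higher and 2 lower, beside 17.1% and 16.7% of all tested genes. Of the CDX factors only Cdx2 was tested, with 45.3 and 34.4 normalized counts in the Cry/Per/Nr1d_KO-labelled pair and at most 0.79 in the other 4. It passed the filter on low counts only through that pair, so its call is no result.

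Chromatin regulators of the clusters were counted in the same way, and 7, 12 and 15 of the 17 Polycomb genes had an unadjusted p under 0.05 in the 3 comparisons. Of 17 Polycomb genes, 1 was called higher (Ezh1, 0.87) and 0 lower by edgeR in the Cry/Per_KO-labelled pair than in the Cry/Per/Nr1d_KO-labelled pair. Of all tested genes, 10.4% were called higher and 12% lower in that comparison. In Per/Nr1d_KO cells 1 was called higher (Jarid2, 0.83) and 3 lower than in the Cry/Per/Nr1d_KO-labelled pair, beside 13.4% and 13.1% of all tested genes. Cbx6 and Cbx8 were among the lower (-1.59 and -1.04). Against the Cry/Per_KO-labelled pair, 1 was called higher and 3 lower in Per/Nr1d_KO cells, beside 17.1% and 16.7% of all tested genes. Cbx6 was at -1.53. Of 13 trithorax, demethylase and boundary genes, the one called was Kmt2a, which was higher in the Cry/Per_KO-labelled pair than in the Cry/Per/Nr1d_KO-labelled pair (0.82) and lower in Per/Nr1d_KO cells than in the Cry/Per_KO-labelled pair (-1.28).

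The 3 tested genes whose pattern over the 6 libraries was most like that of each member included no Hox gene. Nearest to Hoxa2 was 4930426I24Rik (root mean square difference 0.10 in log2), to Hoxa3 Pcdhgb7 (0.16), to Hoxa4 BC039771 (0.12), to Hoxa5 Cdk6 (0.12), to Hoxa6 Ifi35 (0.12) and to Hoxa7 Slc11a1 (0.14). Among these genes was Npas2, a clock factor and paralogue of Clock, which was the second nearest to Hoxa6 with 49.7 and 41.1 normalized counts in the Cry/Per/Nr1d_KO-labelled pair, 64.6 and 67.8 in the Cry/Per_KO-labelled pair, and 312 and 260.4 in Per/Nr1d_KO cells. With 6 libraries that fall into 3 pairs, many genes share a pattern, and the likeness is a description.

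Other cell types were checked by their markers. The summed normalized counts of 8 epithelial markers were 17.7 to 64.4 in the Cry/Per_KO- and Cry/Per/Nr1d_KO-labelled pairs and 142 to 145 in Per/Nr1d_KO cells. Cdh1 made up most of the latter, with 100.1 and 110.5 there against 7.99 to 27.8 in the other 4 libraries. Epcam, the other marker tested, had means of 29.5, 11.1 and 22.4 in the Cry/Per/Nr1d_KO-labelled pair, the Cry/Per_KO-labelled pair and Per/Nr1d_KO cells. The sum of 8 blood cell markers, of which 3 were at 0 in every library, was 132 and 158 in the Cry/Per/Nr1d_KO-labelled pair. It was 210.4 and 229 in the Cry/Per_KO-labelled pair, and 271 and 289 in Per/Nr1d_KO cells. This sum had the order of lines of Hoxa4, Hoxa5 and Hoxa6, but Cd68 made up most of it. Cd68 had means of 120, 151 and 267 in these lines. Lyz2, the other blood marker tested, had means of 23.98, 67.3 and 9.17. It was called lower in Per/Nr1d_KO cells than in either labelled pair. The sum of 6 endothelial markers was 214 to 226, 83.5 to 85.4 and 122 to 142 in the same lines, and that of 6 muscle markers 169 to 202, 47.9 to 49.1 and 124 to 152, so that the lines did not overlap in these sums. The endothelial markers moved apart. Tek had means of 8.55, 7.89 and 41.8 in these lines, whereas Vwf had 91.9, 30.5 and 6.41. The sum of 8 neural markers was 5776 to 6193 in the Cry/Per_KO- and Cry/Per/Nr1d_KO-labelled pairs and 1289 and 1323 in Per/Nr1d_KO cells, and its members moved apart. Map2 had means of 3789, 5065 and 344 normalized counts in the Cry/Per/Nr1d_KO-labelled pair, the Cry/Per_KO-labelled pair and Per/Nr1d_KO cells, Tubb3 1868, 358 and 669.6, and Pax6 167, 6.78 and 4.03, whereas Sox2 was highest in Per/Nr1d_KO cells with 137. The part of these markers in the Hoxa differences was not tested, and in bulk RNA fewer cells with a transcript and less of it per cell cannot be told apart.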

How the data were processed

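RNA of 3 MEF lines, 2 libraries each, was poly-A enriched, made into stranded libraries and sequenced as single reads of 50 bases. STAR placed the reads on mm10 and featureCounts assigned them to genes, and the authors deposited these whole counts by Entrez Gene ID, not normalized. The strand setting and the treatment of reads with several matches are not given in the sources used here. The authors also deposited 2 tables of their own DESeq2 1.22.2 comparisons (baseMean, log2 fold changes, standard errors and p-values), which were not used.

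Groups follow the genotype labels. The counts were fitted with edgeR 4.0.16 (R 4.3.3) after TMM normalization, in 1 quasi-likelihood model of the 6 libraries and 3 groups, over the 14770 genes whose mean reached 10 normalized counts. The minimum was set at 10 because 2 of the 6 Hoxa genes reach the study's minimum of 100. Calls needed a Benjamini-Hochberg adjusted p under 0.05 and a change of over 75%. Standard errors were computed as the absolute log2 fold change over the root of F. The members and gene lists were chosen with earlier results of these data known. Named were the 6 genes, the other Hox genes of the lists, the flanking genes, up to 3 called genes per list and comparison with the largest change, and the 3 tested genes most like each member. Symbols and coordinates are from RefSeq (GRCm38.p6), and exons are from GENCODE vM21. Alternatives were DESeq2 1.42.0, the study's own criteria, median-of-ratios size factors, other filters, glmTreat in edgeR, no limit on the fold, the compared groups alone, a replicate block, chromosome 6 medians subtracted and leaving out each library. The code was tested on simulated counts. Library totals were 53764390 to 85927236 counts, and the common biological coefficient of variation was 0.0385, which is below the counting error of each of the 6 Hoxa genes in every library. The libraries of each line differed by more than sampling noise (chi-square over degrees of freedom 6.98 to 14), so none was a repeat of another. No sequences of proteins were used here. Some genes of the lists are not reported here.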

Additional observations from a re-analysis of the deposited data

How the results depend on the processing

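Under the alternatives, 264 log2 fold changes of the 6 genes were compared with the main fit, of which all 264 had its direction and 244 its call. Those without a limit on the fold and with glmTreat are the main fit's own values. Their direction could not change, and only their call could. The study's own criteria (DESeq2, adjusted p under 1e-22 and a mean of at least 100, 11934 genes) called 1150, 1802 and 2600 genes in the comparisons of Cry/Per_KO with Cry/Per/Nr1d_KO, Per/Nr1d_KO with Cry/Per/Nr1d_KO and Per/Nr1d_KO with Cry/Per_KO as labelled, where edgeR called 3304, 3912 and 4996. Of the 6 genes these criteria called 0, 0 and 0, of which 2 were tested and 2 had an unadjusted p under 0.05 by DESeq2 in each comparison, with a lowest adjusted p of 3.14e-22, 2.94e-15 and 3.86e-07. A mean of at least 100 in edgeR called 2 of the 6 genes in each comparison, the number that could be tested, and 2002, 2462 and 3461 genes in all. Without a limit on the fold, 10694, 10688 and 11559 genes were called in all. With glmTreat against the same fold, 2250, 3078 and 3960 genes were called in all, and of the 6 genes 2 in the first comparison, where Hoxa2, Hoxa5 and Hoxa7 lost their call, 5 in the second, and 3 in the last, where Hoxa2 and Hoxa5 lost theirs. Leaving out 1 library gave 3 to 5, 5 to 5 and 4 to 6 of the 6 genes and 3208 to 3290, 3757 to 3922 and 4830 to 5004 genes in all, and the libraries that changed a call are named with the genes. A replicate block left 5 of the 6 genes called in each comparison and 3295, 3902 and 4982 genes in all. Replicate numbers did not mark a shared day in the sources, and deviations of libraries with the same number correlated at -0.08, -0.07 and -0.04, so the libraries were not treated as paired.

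With 10 to 340 counts per library, counting error is a large part of the error of these genes, and a count of 0 allows 2.37 to 3.80 normalized counts. The lines differ in clone as well as genotype, and these cannot be told apart here.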
